A study of Mus musculus with 4 samples.

Results

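The genes described here are 10 members of the retinoic acid pathway, taken by symbol from the 32285 genes counted in every library: the synthesis genes Rdh10 and Aldh1a2, the breakdown genes Cyp26a1, Cyp26b1 and Cyp26c1, the receptor genes Rara, Rarb and Rarg, and the binding protein genes Crabp1 and Crabp2. All 10 symbols were found once. RNA was measured by droplet-based 3′ single-cell sequencing, which counts each captured transcript by a unique molecular identifier (UMI), in live EGFP+ cells sorted from the pharyngeal region and heart of mouse embryos at E9.5. The labels give the strain as outbred SwissWebster, while the study's methods describe mice kept on a mix of that strain with C57BL/6. There were 2 libraries of cHet embryos (Tbx1Cre/+; Kmt2d F/+; GFP F/+) and 2 of cKO embryos (Tbx1Cre/+; Kmt2d F/F; GFP F/+). Cre was driven from the Tbx1 locus, so the sorted cells were those of the Tbx1 lineage, and both genotypes carried a single working copy of Tbx1. Libraries of Rep1 pooled 4 embryos and used the Next GEM v3.1 kit, and libraries of Rep2 pooled 3 embryos and used the GEM-X v4.1 kit. Embryos of a pool could not be told apart, so the library was the replicate (n = 2 per genotype), and the comparisons below ask whether these genes differed when the second copy of Kmt2d, a gene for a histone methyltransferase, was also inactivated.

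Retinoic acid is made from retinol in 2 steps. RDH10 oxidises retinol to retinaldehyde, and ALDH1A2 oxidises retinaldehyde to retinoic acid. The CYP26 enzymes break retinoic acid down, so tissues that express them act as sinks beside the tissues that make it. Retinoic acid binds the receptors RARα, RARβ and RARγ, which sit on DNA as partners of the RXR proteins, and CRABP1 and CRABP2 carry it in the cytoplasm. In the embryo it is known for setting the posterior limit of the heart field and for patterning the posterior pharyngeal arches, and both too much and too little of it disturb them.

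Receptors of this family bind direct repeats of a short half-site, and Rarb and Cyp26a1 are textbook targets of their own ligand. Start-site windows were therefore searched, from 250 bases before to 50 bases after each start, in RefSeq sequences of GRCm38.p6 (8 of the 10 members matched, with 12 windows). A repeat spaced by 5 bases was searched as GNTCANNNNNNGNTCA on both strands, and it was found in 2 members. These stretches are shown because both genes are described below as a receptor and as a sink, with the repeat in capitals.
Rarb, chr14:16575507-16575534, minus strand, repeat from 52 to 37 bases before the start: ggaaggGTTCACCGAAAGTTCActcgca
Cyp26a1, chr19:37697770-37697797, plus strand, repeat on the opposite strand from 32 to 17 bases before the start: taaagaTGAACTTTGGGTGAACtaattt
The same letters were present in 283 of all 32851 windows (0.861%). Repeats spaced by 2 bases (GNTCANNNGNTCA, 1.12% of all windows) and by 1 base (GNTCANNGNTCA, 1.26%) were in the window of no member. These matches describe letters only.

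The 33448 cells kept numbered 5869 in cHet and 6291 in cKO of Rep1, and 9350 in cHet and 11938 in cKO of Rep2, with median depths from 17240.5 to 22972 UMIs. Below, 4 values in a row follow this order of libraries. Library cHet Rep1 stood apart by its 37093 barcodes, against 9307 to 16775 in the others. Of these 37093, 22331 had at least 1000 genes and 6242 at least 3000. The study listed far fewer cells for this library, while its cell counts for the others equal their barcodes here. The libraries of Rep1 shared 12 cell barcodes and those of Rep2 shared 46, and none were shared between replicates. Cells fell into 22 clusters. Clusters with at least 3 markers of a type were named for 12 types, each name standing for cells like that type, and 9 clusters keep the names of leading genes. The aSHF cluster also held 3 markers each of the proepicardium, MLPs and pSHF, and the pSHF cluster 5 of the aSHF and 3 of the MLPs. The neuronal cluster also held 3 markers each of the neural tube and MLPs, so it is not read as neurons alone. The otic vesicle held 3 of the neural crest, and cardiac muscle 6 of the aSHF and 4 of the pSHF. None of the 10 members was used to cluster. The types named were the anterior and posterior second heart field (aSHF and pSHF), multilineage progenitors (MLPs), branchiomeric muscle progenitors (BrM), cardiac muscle, somite, ectoderm, endoderm, otic vesicle, neuronal cells, endothelium and endothelial progenitors. Of 6 mesenchyme markers, 5 or 6 were found in at least 10% of the cells of each unnamed cluster, and also of the MLPs, pSHF, aSHF, somite and neuronal cells, so these markers do not set the unnamed clusters apart. The AY036118/Eif2s2/Cited1 cluster held as few as 5 cells in a library, so its levels are thin and it was not tested. Kmt2d itself stood at 19.1, 17.3, 21.3 and 19.0 CPM over all cells, scaled as in the genotype comparison below (log2 fold change −0.16, SE 0.07, adjusted p = 0.956 in edgeR's quasi-likelihood test). Which part of the transcript the deletion removes is not given in the sources used here. This level of 3′ UMIs is therefore not read as a check of the deletion. The study itself reported Kmt2d to be significantly depleted by RT-qPCR in cKO embryos at E9.5, relative to Tbx1Cre/+ controls. In its single-cell data it described no noteworthy change of Kmt2d between cHet and cKO across clusters.

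Levels are given as CPM, the UMIs of a gene per 1000000 UMIs of the cells of a type in a library. They are a description, with no test between types, since the types are clusters of the same cells. The map of mean levels by cell type shows that neither synthesis gene shared its highest type with a breakdown gene.

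**Figure D1:**
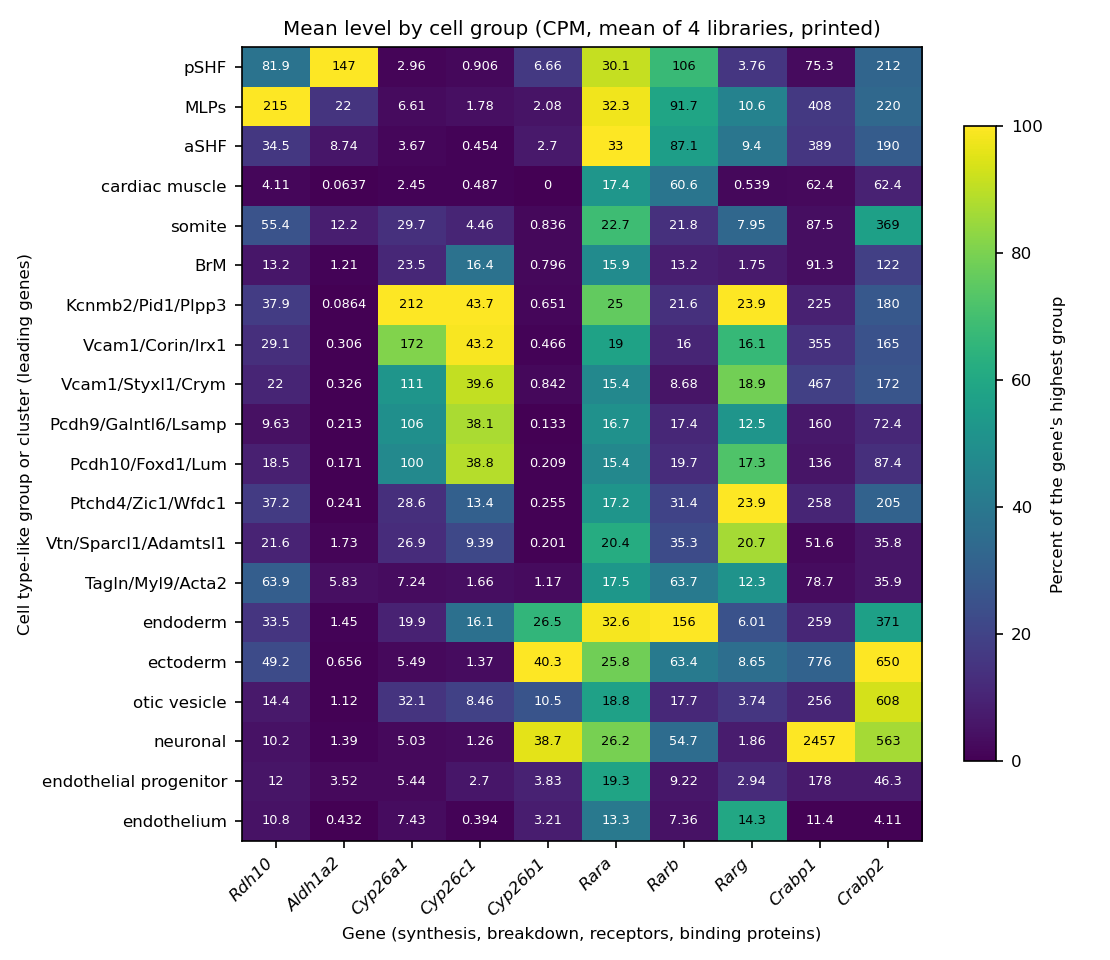
Mean level of the 10 members (columns, in the order synthesis, breakdown, receptors, binding proteins) in 20 cell types or clusters (rows), printed as CPM and coloured as a percent of the gene's highest row. Aldh1a2 was highest in the pSHF (147 CPM), Rdh10 in the MLPs (215 CPM) and Cyp26a1 in the Kcnmb2/Pid1/Plpp3 cluster (212 CPM). The AY036118/Eif2s2/Cited1 cluster, with as few as 5 cells in a library, is not drawn.

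Aldh1a2, whose product makes retinoic acid itself, was concentrated in the pSHF, the progenitors at the inflow end of the heart. Its levels there were 93.0, 134.7, 192.1 and 169.5 CPM (147 ± 43.2, SD, n = 4), and no other type reached the lowest of these in any library. The pSHF held 2.61% to 5% of the cells and 57.5% to 73.8% of all Aldh1a2 UMIs. The MLPs came next with 18.7, 11.3, 29.3 and 28.7 CPM (22.0 ± 8.66) and 11.1% to 19.6% of the UMIs. With each cell thinned to 5000 UMIs, 36.0% to 51.3% of pSHF cells and 3.86% to 9.76% of MLPs had an Aldh1a2 UMI, against 0% to 0.649% in cardiac muscle, where free RNA alone could give such a share. Cardiac muscle had 0, 0, 1 and 0 Aldh1a2 UMIs, and against the limit of 3 UMIs the pSHF level was at least 59.7-fold higher in cHet Rep1, at least 38.2-fold higher in cKO Rep1 and at least 194-fold higher in cKO Rep2.

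Lower in the order, the ranges of Aldh1a2 overlapped each other. The AY036118/Eif2s2/Cited1 cluster stood next by its mean, on 3, 2, 5 and 0 UMIs. The somite cells had 16.03, 26.0, 0.741 and 6.01 CPM, so that both Rep1 values were above both Rep2 values. In the aSHF, the progenitors at the outflow end, levels were 5.04, 10.1, 8.10 and 11.8 CPM. Part of the aSHF cells carried a UMI of Wt1, Upk3b or Lrrn4, which mark the proepicardium, a source of retinoic acid beside the heart. Among them 6.98%, 14.5%, 9.68% and 7.56% had an Aldh1a2 UMI, against 1.41%, 1.497%, 0.826% and 2.24% of the other aSHF cells. These shares come from cells thinned to 5000 UMIs.

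Rdh10, which supplies the retinaldehyde, followed another pattern and was highest in the MLPs, with 124.6, 131.4, 318.2 and 286.4 CPM (215 ± 102). No other type overlapped that range. The MLPs held 35.9% to 42.5% of its UMIs with 6.99% to 9.82% of the cells. Within the MLPs, the subcluster with markers of aSHF-like MLPs (Nkx2-6, Isl1 and Fgf10) had the highest Rdh10 mean of 4, at 158.9, 165.8, 456.9 and 400.8 CPM. The pSHF was second with 59.5, 49.2, 116.0 and 103.0 CPM, followed by the Tagln/Myl9/Acta2 cluster (63.9 ± 49.3) and the somite cells (55.4 ± 34.3), all of which overlapped each other. Cardiac muscle was lowest at 3.64, 1.18, 6.12 and 5.53 CPM. Both Rep2 libraries were above both Rep1 libraries in the MLPs and in the pSHF, so the kit moved with the Rdh10 level more than the genotype did, and the part of the kit in it was not tested. The 2 synthesis genes thus overlapped in the pSHF and the MLPs, in opposite order.

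**Figure D2:**
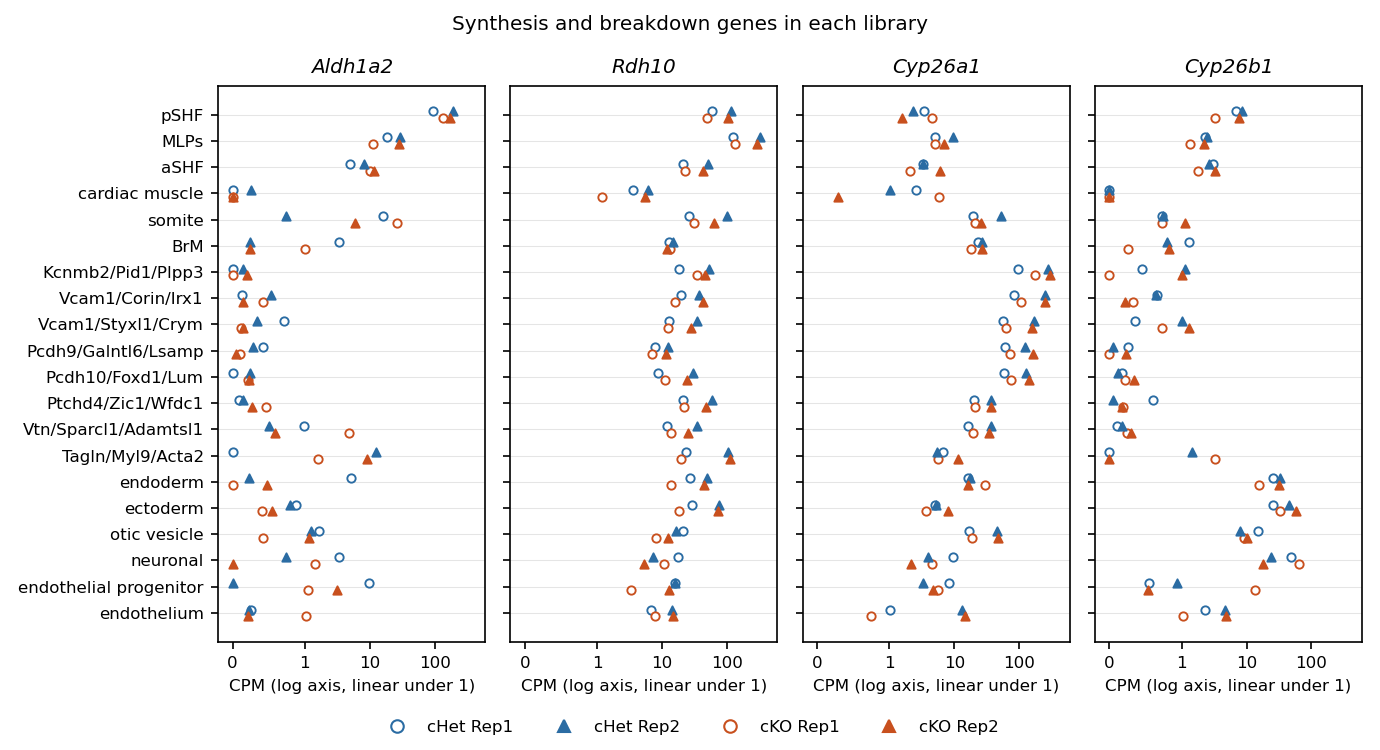
CPM on a log axis that is linear under 1 (x) of 2 synthesis genes (Aldh1a2, Rdh10) and 2 breakdown genes (Cyp26a1, Cyp26b1) in 20 cell types or clusters (rows), with 1 point for each of the 4 libraries (blue cHet, orange cKO, open circles Rep1, filled triangles Rep2). Aldh1a2 in the pSHF, from 93.0 to 192.1 CPM, lies to the right of all its other points, while Cyp26a1 in the pSHF lies between 1.58 and 4.50 CPM.

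Cyp26a1, the main retinoic acid hydroxylase of the early embryo, was high in unnamed clusters and low in the pSHF, where Aldh1a2 was high. The Kcnmb2/Pid1/Plpp3 cluster led with 94.9, 175.7, 276.1 and 301.5 CPM, followed by the Vcam1/Corin/Irx1 cluster (83.7, 108.4, 246.4 and 250.2 CPM) and the Vcam1/Styxl1/Crym cluster (55.6, 62.0, 167.5 and 159.0 CPM). The Pcdh9/Galntl6/Lsamp (106 ± 48.0 CPM) and Pcdh10/Foxd1/Lum clusters (100.2 ± 40.1 CPM) came next, and the ranges of these 5 overlapped. At 5000 UMIs per cell, 31.8% to 56.5% of the cells of the Kcnmb2/Pid1/Plpp3 cluster had a Cyp26a1 UMI. In the pSHF the levels were 3.397, 4.50, 2.35 and 1.58 CPM, with a UMI in 0.541% to 1.83% of cells. Cardiac muscle had the lowest mean, at 2.60, 5.88, 1.02 and 0.291 CPM, and a UMI in 0% to 3.23% of cells. The 3.23% was 1 of 31 cells in cKO Rep1, and 0 cardiac muscle cells of Rep2 had a UMI of any Cyp26 gene. By CPM the pSHF was above cardiac muscle in every library except cKO Rep1. Whether free RNA alone could give the pSHF level was not tested.

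Cyp26c1, whose gene lies 4399 bases upstream of Cyp26a1 on the same strand (GRCm38, chromosome 19, 37685581 to 37693398 against 37697798 to 37701536), followed the same clusters. It had 30.4, 33.3, 52.7 and 58.4 CPM in the Kcnmb2/Pid1/Plpp3 cluster, 33.7, 31.9, 59.0 and 48.2 CPM in the Vcam1/Corin/Irx1 cluster and 24.01, 27.0, 59.6 and 47.9 CPM in the Vcam1/Styxl1/Crym cluster. The same 5 clusters led for both genes. Over 21 types and clusters, log2 levels of the pair gave r = 0.955 (Spearman's rho 0.879). Points of such a correlation share their libraries and depth, and it is given as a description. The BrM cells were next with 18.7, 18.5, 14.1 and 14.5 CPM, below the ranges of the 5 leading clusters, while the endoderm reached into them in 1 library, with 11.9, 35.3, 9.48 and 7.74 CPM. The endothelium was lowest, with 4, 2, 5 and 2 UMIs.

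Cyp26b1, the remaining hydroxylase, was highest in epithelia and in the neuronal cluster, which also held neural tube markers. Levels were 25.7, 32.7, 44.5 and 58.2 CPM in the ectoderm, 48.1, 64.8, 23.7 and 18.1 CPM in neuronal cells, and 25.4, 15.7, 32.8 and 32.1 CPM in the endoderm. These 3 overlapped each other and no other type, the otic vesicle being next at 14.9, 9.23, 7.83 and 10.1 CPM. The order of neuronal and ectoderm levels was not the same in the replicates, neuronal cells being higher in Rep1 and ectoderm in Rep2. Cyp26b1 had 0 UMIs in cardiac muscle in all 4 libraries, which allows up to 1.56, 3.53, 0.765 and 0.873 CPM, and also 0 in the AY036118/Eif2s2/Cited1 cluster. In the 5 clusters high in Cyp26a1 its means were between 0.133 and 0.842 CPM.

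Across the 21 types and clusters, log2 levels of Aldh1a2 gave r = −0.395 with Cyp26a1 and −0.431 with Cyp26c1, but −0.00086 with Cyp26b1. Whether source and sink transcripts lay in the same cells was then read from cells thinned to 5000 UMIs each, which left out none. Cells with an Aldh1a2 UMI numbered 178, 129, 365 and 388, and cells with a UMI of any Cyp26 gene 972, 1237, 2224 and 2755. Both were found in 8, 1, 23 and 13 cells. If the kinds of transcript were independent over all cells, 0.502%, 0.403%, 0.929% and 0.750% of cells would hold both, and the shares found were 0.136%, 0.0159%, 0.246% and 0.109% (exact binomial 95% intervals 0.0589% to 0.268%, 0.000402% to 0.0885%, 0.156% to 0.369% and 0.0580% to 0.186%, for counting error only). Within types, independence would give 10.2, 5.07, 23.2 and 17.3 cells, or 0.173%, 0.0805%, 0.248% and 0.145% of cells, each inside the interval of its library. Cells with both were thus scarcer than independence over all cells gives, and a difference from independence within types was not detectable at this depth. In the pSHF, 3.42% to 5.56% of cells in Rep2 and 1.83% to 4.87% in Rep1 had a Cyp26 UMI, and 15 of the 23 cells with both in cHet Rep2 were pSHF cells.

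**Figure D3:**
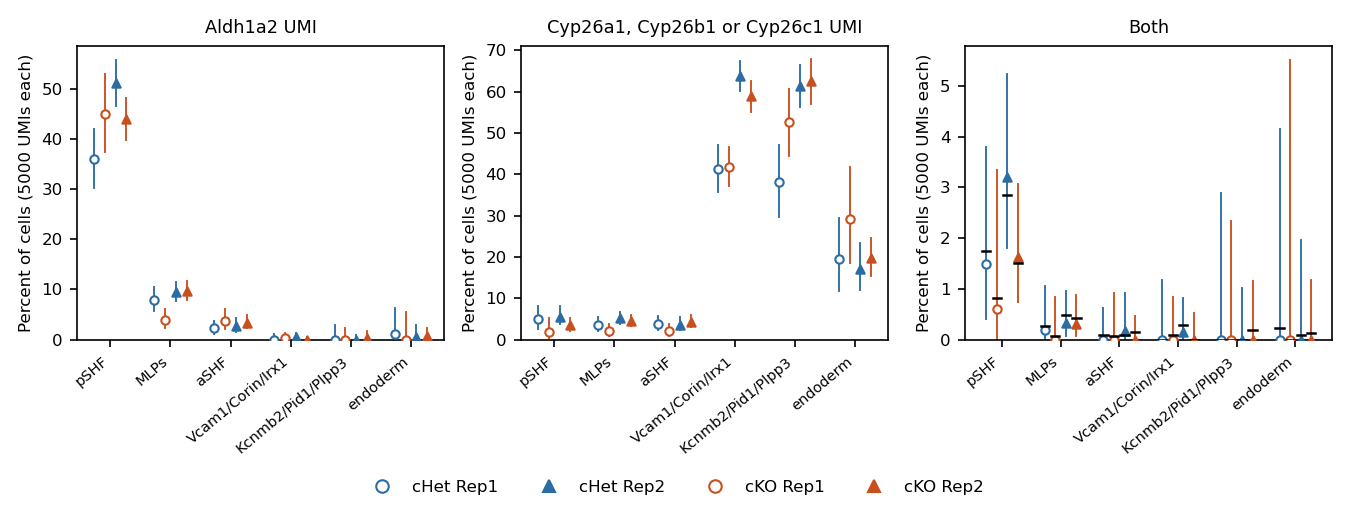
Percent of cells (y, each cell thinned to 5000 UMIs) with an Aldh1a2 UMI (left), with a UMI of any Cyp26 gene (middle) and with both (right) in 6 cell types or clusters, 1 point per library (blue cHet, orange cKO, open circles Rep1, filled triangles Rep2) with exact binomial 95% intervals. Black bars at right mark the share that follows from independence within the type, and each lies inside the interval of its point. Aldh1a2 was found in 36.0% to 51.3% of pSHF cells.

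Mean levels of the receptor genes ran from 13.3 to 33.0 CPM for Rara, from 6.82 to 156 for Rarb and from 0.539 to 23.9 for Rarg. Rarb, itself a target of retinoic acid, was highest in the endoderm, the lining of the pharyngeal pouches, at 140.7, 101.4, 195.6 and 184.8 CPM (156 ± 43.3). The pSHF (106 ± 21.6), the MLPs (91.7 ± 22.0) and the aSHF (87.1 ± 20.6) followed and overlapped it. Neuronal cells varied most, with 72.2, 121.9, 16.3 and 8.51 CPM, both Rep1 values being above both Rep2 values. Of the types with over 20 cells in every library, the endothelium was lowest at 4.72, 6.21, 10.0 and 8.48 CPM, and the thin AY036118/Eif2s2/Cited1 cluster had a lower mean (6.82 CPM). Levels in the 5 clusters high in Cyp26a1 were between 8.68 and 21.65 CPM as means, and log2 levels of Rarb and Cyp26a1 gave r = −0.538 over the 21 types and clusters.

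Rara, known for its wide expression, was highest in the aSHF (28.6, 26.2, 37.7 and 39.6 CPM), the endoderm (29.4, 29.0, 38.4 and 33.7 CPM) and the MLPs (27.9, 24.7, 40.6 and 36.2 CPM). These overlapped each other, the pSHF and neuronal cells. The AY036118/Eif2s2/Cited1 cluster (13.3 CPM) and the endothelium (12.9, 9.02, 14.4 and 17.1 CPM) had the lowest means. Rara and Rarb gave r = 0.809 over the 21 types and clusters. Rarg, the receptor gene known for mesenchyme and cartilage precursors, ran the other way, with r = 0.616 against Cyp26a1 and −0.287 against Rarb. It was highest in the Kcnmb2/Pid1/Plpp3 (16.8, 17.3, 31.6 and 30.1 CPM), Ptchd4/Zic1/Wfdc1 (18.5, 14.5, 32.9 and 29.7 CPM) and Vtn/Sparcl1/Adamtsl1 clusters (16.01, 12.2, 31.5 and 23.0 CPM). In cardiac muscle it had 1, 0, 3 and 3 UMIs, at or under the limit of 3, and in the BrM cells 1.97, 1.01, 2.74 and 1.30 CPM. The pSHF, rich in Aldh1a2 and Rarb, had 3.76 CPM of Rarg as a mean. Rarb overlaps Top2b on the opposite strand (GRCm38, chromosome 14, 16430839 to 16819156), and whether the counting used strand is not given in the sources used here, so a part of its UMIs could belong to that gene.

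Crabp1, a carrier known to hold retinoic acid in the cytoplasm of neural and neural crest-derived cells, had its highest level in neuronal cells, at 1742, 2551, 2782 and 2753 CPM, which no other type overlapped. The ectoderm was second (689, 728, 899 and 789 CPM) and the Vcam1/Styxl1/Crym cluster followed (464, 529, 399 and 477 CPM). The endothelium was lowest at 20.4, 10.4, 7.35 and 7.62 CPM, with a UMI in 3.39% to 6.71% of cells thinned to 5000 UMIs, against 76.9% to 87.6% of neuronal cells. Unthinned, endothelial cells had median depths of 15948 to 27277 UMIs and neuronal cells of 17998 to 22784. Free RNA could give such a share, so levels near that of the endothelium are read as background.

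Crabp2, which delivers retinoic acid to the receptors, was highest in the ectoderm (506, 494, 807 and 794 CPM), the otic vesicle (478, 510.4, 727 and 717 CPM) and neuronal cells (554, 749, 537 and 412 CPM), with overlapping ranges. The endothelium was again lowest, at 4.33, 2.37, 4.90 and 4.83 CPM. The Vtn/Sparcl1/Adamtsl1 cluster was the lowest but one for both genes, with means of 51.6 CPM of Crabp1 and 35.8 CPM of Crabp2.

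Likeness of pattern was taken as Pearson's r of log2(CPM + 5) over the 21 types and clusters, among 6007 genes with at least 50 CPM in 1 of them. The genes most like Aldh1a2 were Foxf1 (0.838), Osr1 (0.799) and Fendrr (0.798), each with its highest mean in the pSHF, and Foxf1 and Osr1 were among the markers that named that type. For Rdh10 they were Plat (0.870), Arg1 (0.752) and Hotairm1 (0.736), all highest in the MLPs. Cyp26a1 was most like Mpp6 (0.813), Snhg8 (0.809) and Mn1 (0.803), apart from Cyp26c1, which fell under the minimum of 50 CPM. Cyp26c1 was most like Cyp26a1 (0.955), Snhg8 (0.785) and Mpp6 (0.783). Cyp26b1 was most like Galnt3 (0.956), Spint2 (0.924) and Mapk13 (0.907), which were highest in the ectoderm. For the receptor genes, Rara was most like Tshz1 (0.858), Rhou (0.852) and Rarb (0.809), Rarb like Rhou (0.775), Slit3 (0.769) and Cirbp (0.761), and Rarg like Pgrmc1 (0.867), Leprot (0.830) and Nynrin (0.829). Crabp1 was most like Bex2 (0.790), Crabp2 (0.768) and Rcor2 (0.749), and Crabp2 like Cd24a (0.912), Klhdc2 (0.859) and Bex2 (0.857).

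The genotypes were compared with edgeR's quasi-likelihood test on UMIs summed per library, with the replicate as a block and p-values adjusted by the Benjamini-Hochberg method over all genes. In this comparison CPM are scaled by TMM factors and differ somewhat from the levels above, and a log2 fold change below 0 means lower in cKO. A block leaves 1 residual degree of freedom per gene, so the spread was largely shared across genes, and all calls below rest on it. Over all cells edgeR called none of the 10 members and none of 20126 genes (0.00%), while 1139 genes had an unadjusted p under 0.05 and DESeq2 called 62. Rdh10 had 29.3 and 26.2 CPM in Rep1 and 57.2 and 48.1 CPM in Rep2 (log2 fold change −0.21, SE 0.06, adjusted p = 0.815 in edgeR). Aldh1a2 was 8.54 against 7.25 CPM and 12.2 against 10.4 CPM (−0.23, SE 0.09, adjusted p = 0.882 in edgeR). Cyp26a1 was 28.2 against 43.1 CPM in Rep1 and 60.1 against 60.3 CPM in Rep2 (0.30, SE 0.13). The other 7 had log2 fold changes from −0.17 to 0.15. Such sums mix the level in a cell with the number of cells of a type: the 5 clusters high in Cyp26a1 made up 29.1% of the cells of cHet and 37.5% of cKO in Rep1, and 30.1% and 28.5% in Rep2. Fewer cells of a type and less RNA per cell cannot be told apart in them.

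Within cell types, 165 of the 200 pairs of member and type passed the filter on low counts in 20 fits, and 14 of these were called (8.48%), 11 lower and 3 higher in cKO, against 0.613% of all genes over the same fits. Members were listed with earlier results of these data known, and none of these shares is a test of the list. The calls fell mostly on the binding protein genes and on unnamed clusters. Over all cells these 2 genes had the most UMIs of the members, and the share over all genes was not matched for UMI counts. In the Pcdh9/Galntl6/Lsamp cluster, Rarg (−0.42) and Rara (−0.39) did not pass, while Crabp1 was called at −0.37. Rdh10 (−0.09) and Rarb (−0.03) there were near 0. Whether the difference is particular to the binding protein genes was not tested. Without the replicate block no pair was called, and neither was any other gene in any fit. DESeq2 called 7 pairs, all in 4 groups of cells. Over all genes it called 6 of 12821 in the Pcdh10/Foxd1/Lum and 52 of 14566 in the Pcdh9/Galntl6/Lsamp cluster. It called 12 of 14282 in the Vtn/Sparcl1/Adamtsl1 cluster and 16 of 14635 in the BrM cells. Fits with 1 library left out leave 1 library in a group and are given below by their effect size. Counts of fits with the same sign in both replicates are also given below. The fits share the same 4 libraries, so such counts are not separate results. Over all genes, 48.5% to 55% of those tested in a fit by type had the same sign in both replicates.

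Crabp1 and Crabp2 were lower in cKO in the same 4 groups of cells. In the Pcdh10/Foxd1/Lum cluster, where 1.33% of genes were called, Crabp1 was 235 in cHet and 137 in cKO in Rep1, and 114 against 78.0 scaled CPM in Rep2 (log2 fold change −0.67, SE 0.07, adjusted p = 1.12e-17 in edgeR). Crabp2 was 140 against 73.1, and 86.0 against 57.4 scaled CPM (−0.76, SE 0.08, adjusted p = 1.10e-18 in edgeR). For Crabp2 both cHet libraries were above both cKO libraries, while for Crabp1 the replicates differed more than the genotypes and cKO Rep1 was above cHet Rep2. With no block and 1 library left out, the Crabp1 difference lay between −1.16 (without cKO Rep1) and −0.08 (without cHet Rep1), and that of Crabp2 between −1.10 (without cHet Rep2) and −0.39 (without cHet Rep1).

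In the Pcdh9/Galntl6/Lsamp cluster (1.83% of genes called), Crabp2 fell from 106 to 54.6 and from 83.3 to 47.0 scaled CPM (−0.89, SE 0.06, adjusted p = 1.37e-07 in edgeR). Crabp1 fell from 205 to 163 and from 158 to 119 (−0.37, SE 0.05, adjusted p = 0.000841 in edgeR). In the Vtn/Sparcl1/Adamtsl1 cluster (1.97% of genes called), Crabp1 fell from 84.9 to 47.1 and from 44.3 to 35.2 (−0.58, SE 0.07, adjusted p = 2.00e-12 in edgeR), and Crabp2 from 52.7 to 28.7 and from 37.5 to 25.5 (−0.70, SE 0.08, adjusted p = 5.07e-14 in edgeR). In the BrM cells (1.46% of genes called), which form the branchiomeric muscles, Crabp1 fell from 167 to 112 and from 61.5 to 41.8 (−0.56, SE 0.08, adjusted p = 8.29e-05 in edgeR). Crabp2 fell there from 135 to 77.3 and from 149 to 117 (−0.55, SE 0.09, adjusted p = 0.000544 in edgeR). All 8 of these differences were lower in cKO within each replicate, and DESeq2 also called all of them except Crabp1 in the Vtn/Sparcl1/Adamtsl1 cluster. Leaving out cHet Rep1 turned the sign of the Crabp1 difference in the BrM cells (0.32, with no block). With no block and 1 library left out, Crabp1 lay between −1.04 (without cHet Rep2) and −0.12 (without cHet Rep1) in the Vtn/Sparcl1/Adamtsl1 cluster, and between −0.61 (without cKO Rep1) and −0.15 (without cKO Rep2) in the Pcdh9/Galntl6/Lsamp cluster. Crabp1 in the endothelium, read as background, stood at 23.7 and 12.1 scaled CPM in Rep1 and at 6.34 and 6.59 in Rep2, and its part in the Crabp1 differences was not tested.

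Crabp1 was also lower in the otic vesicle (0.0991% of genes called), the rudiment of the inner ear, with 402 against 253 and 236 against 163 scaled CPM (−0.60, SE 0.09, adjusted p = 0.0347 in edgeR), and with no block it lay between −0.95 (without cHet Rep2) and −0.17 (without cHet Rep1). In the pSHF (0.923% of genes called) the call rested on Rep1, where Crabp1 was 152 in cHet and 91.2 in cKO, against 38.5 and 38.4 in Rep2 (−0.38, SE 0.10, adjusted p = 0.0291 in edgeR). Over the 20 fits Crabp1 was lower in cKO in both replicates in 10 and higher in both in 4. Of the fits that did not pass, the lowest value with the same sign in both replicates was that of the endoderm (log2 fold changes −0.67 and −0.42 within the replicates, −0.53 together, adjusted p = 0.138 in edgeR). The Ptchd4/Zic1/Wfdc1 (−0.12), Kcnmb2/Pid1/Plpp3 (−0.03) and Vcam1/Corin/Irx1 clusters (−0.03, with 0.646% of genes called in that fit) also had values below 0 in both replicates. Values above 0 in both replicates were those of the somite cells (0.21), the MLPs (log2 fold change 0.13, adjusted p = 0.618), the aSHF (0.19, adjusted p = 0.653) and the Vcam1/Styxl1/Crym cluster (0.23, adjusted p = 0.455, all in edgeR). In neuronal cells, its highest type, it was 1935 against 2839 scaled CPM in Rep1 and 2512 against 2500 in Rep2 (0.27, adjusted p = 0.685 in edgeR). Leaving out cHet Rep1 turned the sign of the pSHF difference (0.74, with no block).

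**Figure D4:**
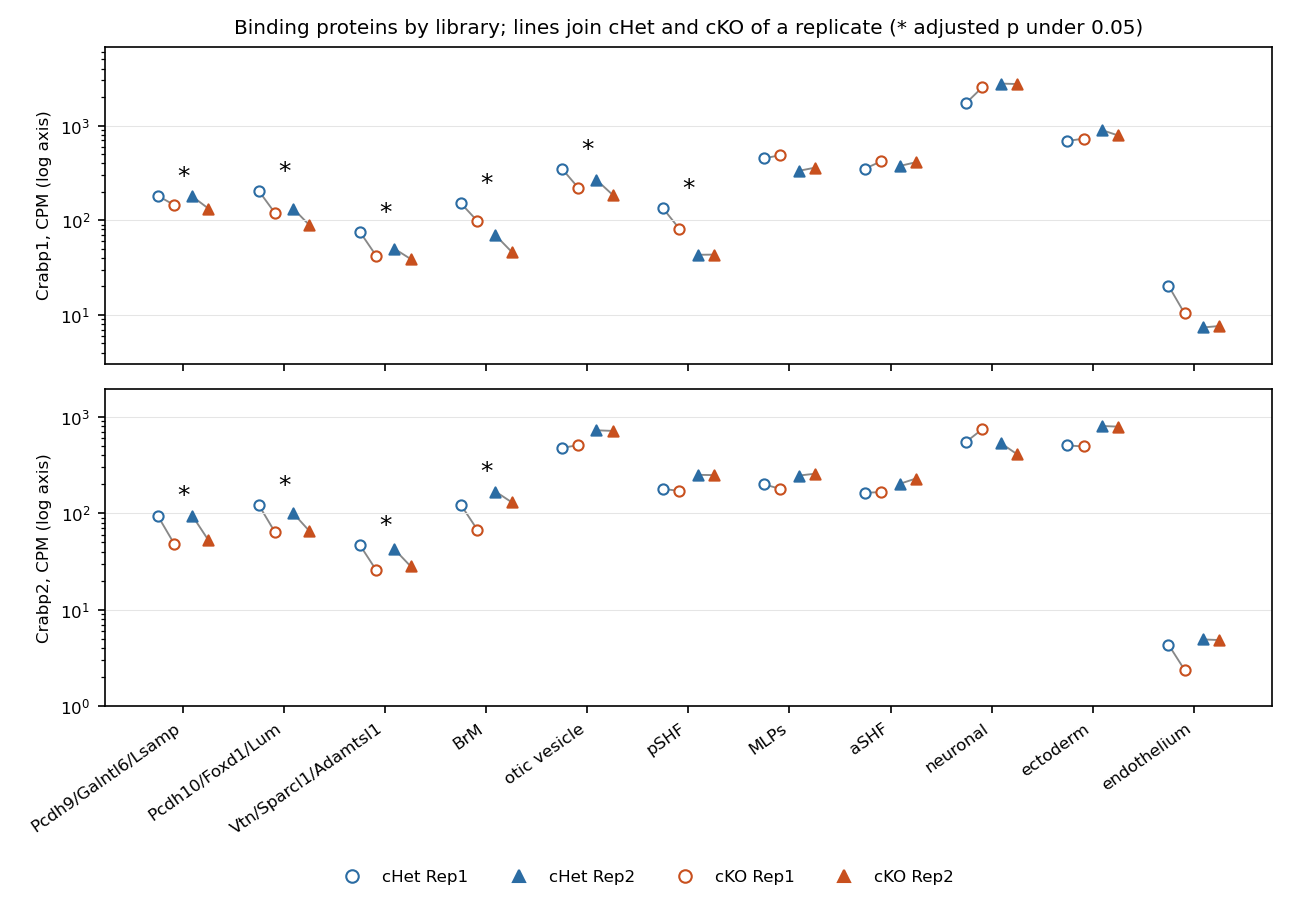
Crabp1 (top) and Crabp2 (bottom) in CPM of the type's own UMIs, not TMM-scaled, on a log axis (y), per library, in 11 cell types or clusters (x); lines join the cHet (blue) and cKO (orange) library of Rep1 (open circles) and of Rep2 (filled triangles), and asterisks mark an adjusted p under 0.05 in edgeR. Both genes are lower in cKO in both replicates in the 4 groups at left, while the endothelium at right shows the lowest levels, from 7.35 to 20.4 CPM of Crabp1.

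Whether the genotype difference itself varied between types was tested in a model over the 12 named types, with the library as a block. Of 15849 genes 46 were called (0.290%), and Crabp1 was the member among them (F = 6.89, adjusted p = 0.0218 in edgeR). With DESeq2 its adjusted p was 0.167. The other 9 members had adjusted p-values from 0.865 to 1. The unnamed clusters, which hold most of the Crabp2 calls, were not in this model.

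Of the breakdown genes, Cyp26a1 was called, as higher in cKO, in 2 of the 5 clusters in which it is abundant. Over its 19 fits it was higher in both replicates in 6 and lower in both in 1. In the Pcdh10/Foxd1/Lum cluster, another of the 5, it had 67.8 against 85.4 scaled CPM in Rep1 and 109 against 125 in Rep2. This did not pass (log2 fold change 0.25, SE 0.08, adjusted p = 0.0709 in edgeR). In the Kcnmb2/Pid1/Plpp3 cluster (0.735% of genes called) it was 110 against 202 scaled CPM in Rep1 and 242 against 264 in Rep2 (log2 fold change 0.39, SE 0.08, adjusted p = 0.000674 in edgeR). The within-replicate differences were 0.88 and 0.13, so most of it came from Rep1, and without cHet Rep1 and with no block the log2 fold change was −0.05. In the Pcdh9/Galntl6/Lsamp cluster it rose from 69.7 to 82.5 and from 108 to 148 (0.37, SE 0.06, adjusted p = 0.00296 in edgeR). Without cKO Rep2 and with no block this was −0.11, and with RLE scaling the adjusted p was 0.0524. DESeq2 called neither (adjusted p = 1.00 and 0.321). Cyp26c1 was called in none of 13 fits, its lowest p being in the Ptchd4/Zic1/Wfdc1 cluster, where 0.619% of genes were called (13.9 against 11.1 and 17.1 against 10.7 scaled CPM, log2 fold change −0.53, SE 0.12, adjusted p = 0.0569 in edgeR). Cyp26b1 was called in none of 9, with its lowest p in the ectoderm (29.1 against 37.1 and 39.3 against 52.0, 0.38, SE 0.12, adjusted p = 1.00 in edgeR).

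Of the synthesis genes, Rdh10 was called in none of 20 fits, with its lowest p in the pSHF (67.9 against 55.2 and 103 against 91.2 scaled CPM, −0.22, SE 0.09, adjusted p = 0.435 in edgeR). It was lower in cKO in both replicates in 9 fits and higher in both in 1. Aldh1a2 passed the filter in 7 fits only, being higher in cKO in both replicates in 3 and lower in both in 1. In the aSHF it had 5.75 against 11.3 and 7.10 against 10.5 scaled CPM and did not pass (log2 fold change 0.73, SE 0.17, adjusted p = 0.187 in edgeR). In the pSHF it had opposite signs in the replicates (106 against 151 scaled CPM in Rep1 and 171 against 150.2 in Rep2, log2 fold change 0.11, SE 0.08, adjusted p = 0.959 in edgeR). Its single call was in the Vtn/Sparcl1/Adamtsl1 cluster, where it is low: 10, 80, 9 and 12 UMIs (log2 fold change 1.57, SE 0.41, adjusted p = 0.0113 in edgeR). Of the 80 UMIs of cKO Rep1, 69 were in 1 cell. Without that cell the log2 fold change was −0.16 (SE 0.51, adjusted p = 0.994 in edgeR), so the call rests on it.

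Of the receptor genes, Rarg was lower in cKO in the Vtn/Sparcl1/Adamtsl1 cluster, one of its 3 highest, at 18.1 against 13.6 and 27.9 against 20.7 scaled CPM (−0.42, SE 0.11, adjusted p = 0.00675 in edgeR). With no block and 1 library left out this lay between −0.76 (without cKO Rep2) and −0.07 (without cHet Rep2). It was lower in both replicates in 11 of 17 fits and higher in both in 0, and the other 16 fits did not pass. As these fits share the same libraries, they are not separate results. Rara was called in none of 20 fits. Its lowest p was in the Pcdh9/Galntl6/Lsamp cluster (16.8 against 13.6 and 20.4 against 15.0, −0.39, SE 0.10, adjusted p = 0.0630 in edgeR). Rarb was called in none of 20 either, its lowest p being in the Tagln/Myl9/Acta2 cluster (70.0 against 37.7 and 78.7 against 65.9, −0.43, SE 0.16, adjusted p = 0.733 in edgeR). Rarb had 8 fits lower and 5 higher in both replicates.

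**Figure D5:**
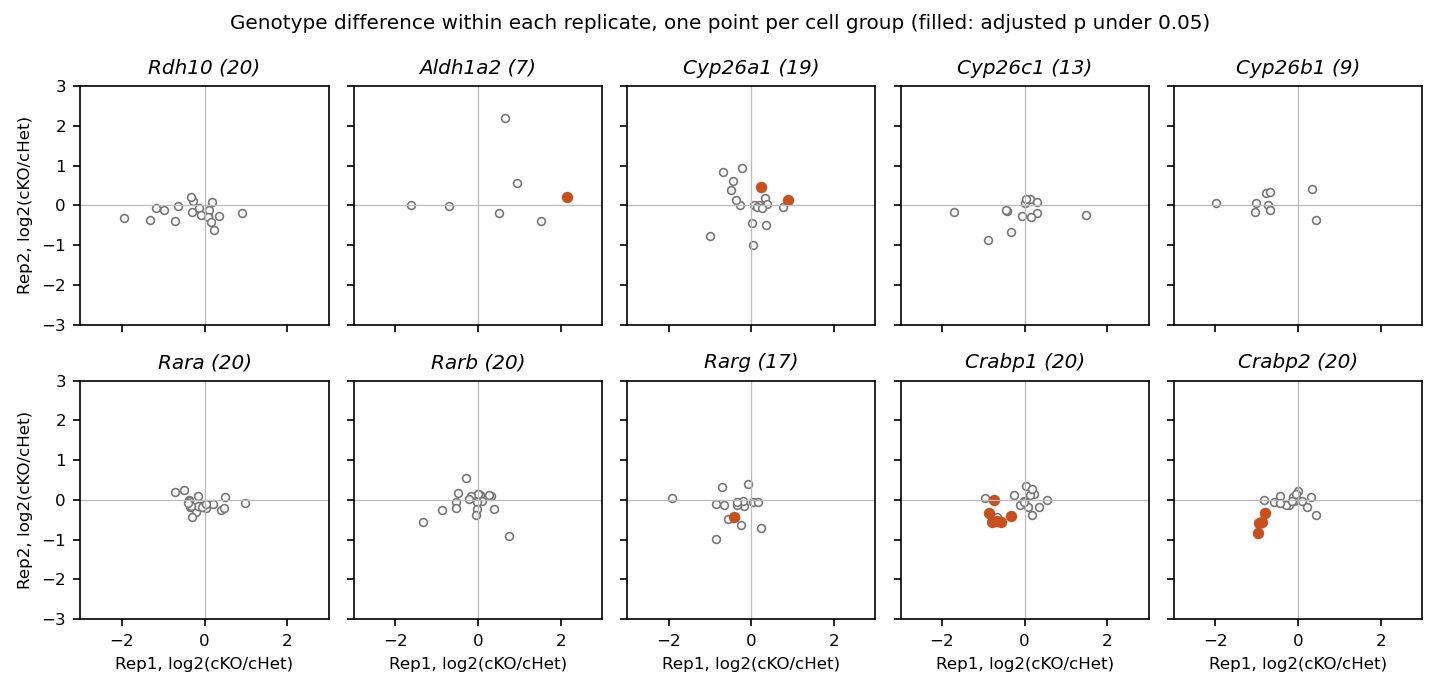
Log2 fold change of cKO over cHet in Rep1 (x) against Rep2 (y) for each member (panels, with the number of fits in brackets), 1 point per cell type or cluster, filled where the adjusted p in edgeR was under 0.05. The filled Crabp2 points lie below 0 on both axes, and the filled Crabp1 points do too, that of the pSHF being near 0 in Rep2.

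Other genes of the pathway were read from lists written with earlier results known, and not all of their genes are reported here. Of those that supply retinol and retinaldehyde, Stra6 (26.9 CPM) and Adh1 (13.0 CPM) had their highest means in the MLPs, as Rdh10 did. The list for other synthesis, uptake and storage had 3 calls higher and 5 lower in cKO among 165 pairs of gene and type tested (4.85%, against 0.613% of all genes over the same 20 fits). Of the 5, of which the other 4 are not reported here by gene, Stra6, the retinol importer, was lower in cKO in the Vtn/Sparcl1/Adamtsl1 cluster (5.25 against 4.25 and 12.04 against 6.74 scaled CPM, −0.67, SE 0.18, adjusted p = 0.0111 in edgeR).

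In the endoderm (0.104% of genes called), 3 genes of the same list were higher in cKO: Rbp4 and Ttr, carriers of retinol in serum, and Aldh1a1, a further retinaldehyde dehydrogenase. Rbp4 had 12.3 against 92.3 and 6.98 against 99.5 scaled CPM (log2 fold change 3.50, SE 0.21, adjusted p = 1.82e-12 in edgeR), and Ttr 1.95 against 57.6 and 0.616 against 8.78 (4.39, SE 0.43, adjusted p = 1.09e-07 in edgeR). These UMIs came from very few cells. In cKO Rep2, 1 cell held 651 of 691 Rbp4 UMIs and 1 cell held 60 of 61 Ttr UMIs, and in cKO Rep1, 3 cells with 375 Afp UMIs, a liver marker, were present, while both cHet libraries had 0 Afp UMIs. Summed over 9 liver markers, listed after these values were seen, the endoderm had 10.7, 452, 0.694 and 3.63 CPM, with 6, 0, 7 and 1 of the markers at 0. In cells without Afp, Rbp4 stood at 10.7, 12.6, 7.86 and 6.34 CPM. Summed without the cells that had an Afp UMI, Rbp4 had a log2 fold change of −0.09 (adjusted p = 1.00 in edgeR) and Ttr did not pass the filter on low counts. Aldh1a1 went from 4.54 to 7.64 scaled CPM in Rep1 and from 9.45 to 34.5 in Rep2 (1.69, SE 0.28, adjusted p = 0.00254 in edgeR), and without those cells its log2 fold change was 1.71 (SE 0.28, adjusted p = 0.0398 in edgeR). Its UMIs were spread over 5, 8, 21 and 63 cells.

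Of 18 receptor partners and cofactors, all 18 were tested over all cells and none was called. Within types the list had 0 calls higher and 3 lower in cKO among 350 pairs tested (0.857%), near the 0.613% of all genes, so the 3 calls are given as values of single genes. Fabp5, an alternative carrier of retinoic acid, was lower in the pSHF (1160 against 1012 and 761 against 533 scaled CPM, −0.36, SE 0.07, adjusted p = 0.000316 in edgeR) and, where 0.682% of genes were called, in the MLPs (−0.23, SE 0.06, adjusted p = 0.0416 in edgeR). Zfp423, a cofactor of the receptors, was lower in the Vtn/Sparcl1/Adamtsl1 cluster (−0.25, SE 0.07, adjusted p = 0.0193 in edgeR). The RXR genes and Kdm6a were called in no fit.

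Of 15 Hox genes that respond to retinoic acid, none was called in edgeR in any of the 21 fits. Over all cells 5 of the 15 had an unadjusted p under 0.05, against 1139 of 20126 genes, with a list median of 0.09. By type the median log2 fold change of those tested ran from −0.49 in the BrM cells to 0.62 in the endothelium. The median of all genes in the BrM cells was 0.01. There 4 of the 11 tested had an unadjusted p under 0.05, against 1228 of 14635 genes. In the endothelium 1 of the 7 tested did, against 639 of 12450 genes. In the aSHF 7 of the 14 tested had an unadjusted p under 0.05, against 717 of 14056 genes, with a list median of 0.28. Hoxc4 there had 3.87 against 8.35 and 6.41 against 11.7 scaled CPM. It did not pass (log2 fold change 0.96, SE 0.17, adjusted p = 0.0625 in edgeR). Several of the Hox genes had their highest mean in neuronal cells, among them Hoxb4 (119 CPM) and Hoxb3 (103 CPM). Hoxd3 (60.7 CPM) was highest in the MLPs. Hoxd3 and Hoxb3 were also markers used to name the MLPs. The list of other responsive genes had 9 calls higher and 5 lower in cKO among 270 pairs tested (5.19%, against the same 0.613%). The 5 lower ones are the same calls as in the list for synthesis, uptake and storage, since both lists hold those genes, and only that of Stra6 is given by gene, so the higher calls named next do not show the direction of the list. Among the higher ones, Meis1, a homeobox cofactor, was higher in cKO in the Kcnmb2/Pid1/Plpp3 cluster (167 against 228 and 201 against 280 scaled CPM, 0.47, SE 0.08, adjusted p = 3.28e-06 in edgeR) and in the Pcdh9/Galntl6/Lsamp cluster (0.44, SE 0.08, adjusted p = 0.00294 in edgeR). Nr2f1, an orphan nuclear receptor, was higher in the Pcdh10/Foxd1/Lum (0.24, SE 0.07), Pcdh9/Galntl6/Lsamp (0.27, SE 0.07) and Ptchd4/Zic1/Wfdc1 clusters (0.31, SE 0.06), with adjusted p-values of 0.0469, 0.0396 and 0.0104 in edgeR. Cdh2 was higher in the BrM cells (0.31, SE 0.07) and the Pcdh9/Galntl6/Lsamp cluster (0.32, SE 0.06). Tbx5, a T-box factor of the inflow tract, was higher in the pSHF (57.2 against 82.7 and 81.9 against 97.8 scaled CPM, 0.36, SE 0.09, adjusted p = 0.0124 in edgeR), and Foxf1 in the Tagln/Myl9/Acta2 cluster, where 0.205% of genes were called (1.33, SE 0.32, adjusted p = 0.0265 in edgeR). The list of genes that retinoic acid lowers had 0 calls higher and 1 lower among 103 pairs tested (0.971%). Of these genes, Tbx1, Fgf8, Fgf10, Fgf3, Otx2 and Eya1 were called in no fit.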

How the data were processed

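Droplet-based 3′ single-cell libraries were analysed from 4 pools of embryos, 2 cHet and 2 cKO. The authors deposited raw UMI counts per gene and cell barcode. The submitters' processing notes name Cell Ranger 8.0.1 and mm10, while the file headers of Rep1 name Cell Ranger 7.0.1 and those of Rep2 8.0.1. Whether counting used strand is not given in the sources used here.

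Barcodes with at least 3000 genes, at most 10% mitochondrial and at most 5% hemoglobin UMIs were kept. Doublets were scored with Scrublet. Its automatic cut called 0.0320%, 0.0150%, 1.59% and 1.74% of barcodes and had not worked in Rep1, so scores were cut near the expected share, which removed 4.03% to 5.78%. Cells were clustered with scanpy 1.11.5 and leidenalg 0.10.2 (2000 variable genes without the retinoic acid genes, 30 components, 20 neighbours, resolution 0.8), under Python 3.11.15. A type was named where at least 3 markers were in at least 10% of a cluster's cells and at least 2-fold higher than in other cells, with 5 CPM added. Levels are CPM per type and library. Shares of cells come from cells thinned to 5000 UMIs. Intervals (95%, exact binomial) and the limit of 3 UMIs for a count of 0 cover counting error only.

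Counts were summed per library over all cells and over each type with at least 20 cells in every library. They were tested with edgeR 4.0.16 (quasi-likelihood, TMM, filterByExpr, replicate block, Benjamini-Hochberg over all genes of a fit, adjusted p under 0.05) in R 4.3.3. The code was run on simulated counts with known changes. Every simulated gene had the same spread, so that run cannot show how calls hold where genes differ in spread. SE is the log2 fold change divided by the root of F. Replicate numbers mark a shared kit, and deviations from the group means of same-numbered libraries correlated at 0.612 to 0.823 over 21 fits, so the replicate was a block. P-values measure only the spread between pools that is left after the block. That spread has 1 residual degree of freedom per gene and was largely shared across genes. DESeq2 1.42.0 and other settings were alternatives.

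The members and lists were chosen with earlier results of these data known. Named are all 10 members, with their 3 highest types and the lowest, every call, the lowest p of each, the 3 genes most alike, and listed genes that were called or highest in a type, some of which are not reported here. Other values were named after they were seen. The 9 liver markers, the proepicardial shares and the 2 refits without single cells or cells with Afp were chosen after seeing the data. Sequences are RefSeq (GRCm38.p6) and gene positions GENCODE M21 (GRCm38).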

Additional observations from a re-analysis of the deposited data

Results flagged for a closer look

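The difference between cKO and cHet in Crabp1 varied between the 12 named cell types by the test of the interaction (adjusted p = 0.02178 in edgeR), which is why it is listed here. With RLE scaling the adjusted p was 0.0202 and with DESeq2 0.167. In the fits by type, the BrM cells (log2 fold change −0.56), otic vesicle (−0.60) and pSHF (−0.38) were lower in cKO past the threshold. Of the other 9 named types, none of which passed, the endoderm (−0.53), endothelium (−0.52), cardiac muscle (−0.18) and ectoderm (−0.05) had values below 0, and the neuronal cells (0.27), somite cells (0.21), aSHF (0.19), MLPs (0.13) and endothelial progenitors (0.09) had values above 0. In 5 of these 9, the neuronal cells, endothelial progenitors, endothelium, cardiac muscle and ectoderm, the replicates had opposite signs, and the level in the endothelium is read as background. Groups of 2 libraries are too small for a check of samples far from the others.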

How the results depend on the processing

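The count of member and type pairs called, 14, was 0 with no replicate block, where no gene at all was called in any fit. It was 7 both with DESeq2 and with cells thinned to 5000 UMIs. It ranged from 10 to 20 under the 6 other settings that keep all libraries. With 1 library left out it was 0 in each case (range 0 to 0), also over all cells, and since 3 libraries leave no residual degrees of freedom with the block, these fits have none and the kits are unbalanced. Of the 14 calls, RLE scaling kept 13 and no filter on low counts 14, DESeq2 and thinning 7 each, a minimum of 1000 genes 8, keeping doublets 10, keeping the retinoic acid genes 9 and a resolution of 1.2 kept 11. Only 13 of the 14 had a value with thinning, 11 with the minimum of 1000 genes and 12 with the retinoic acid genes kept. The cause of the other losses was not tested. The type with the highest mean stayed the same for 6 of the 10 members with a minimum of 1000 genes, where Cyp26a1, Cyp26b1, Cyp26c1 and Rarg changed and no Kcnmb2/Pid1/Plpp3 cluster was found. It stayed for 9 with the mean of each cell's own CPM, where Rara changed, and for all 10 with doublets kept, with the retinoic acid genes kept and at a resolution of 1.2. The interaction called 1 member among 46 of 15849 genes. With no filter on low counts it called 7 members among 915 of 26089 genes. With DESeq2 it called 84 of 15849 genes and 0 members. Over all cells Crabp1 turned to −0.05262 with thinning and −0.05400 with a minimum of 1000 genes. The Aldh1a2 call in the Vtn/Sparcl1/Adamtsl1 cluster turned to −0.1635 without the cell richest in it, and Rbp4 in the endoderm to −0.09044 without cells that had an Afp UMI, both chosen after seeing the data. The share of cells with both a source and a sink transcript moved from 0.127% as a mean to 0.9027% unthinned and 0.3922% at 10000 UMIs.

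With 1 library left out, log2 fold changes over all cells ranged from −0.741 to 0.3056 for Rdh10, −0.5316 to 0.01184 for Aldh1a2, −0.2175 to 0.8369 for Cyp26a1, −0.3324 to 0.593 for Cyp26b1, −0.09022 to 0.2175 for Cyp26c1, −0.181 to 0.07053 for Rarb, −0.4182 to 0.04922 for Rarg and −0.3943 to 0.3934 for Crabp1. By type they ranged from −1.441 to 0.3158 for Crabp1 in the BrM cells, −1.296 to 0.7401 for Crabp1 in the pSHF, −0.05001 to 1.091 and −0.1094 to 0.7423 for Cyp26a1 in the Kcnmb2/Pid1/Plpp3 and Pcdh9/Galntl6/Lsamp clusters, −0.4584 to 2.871 for Aldh1a2 in the Vtn/Sparcl1/Adamtsl1 cluster and −0.6386 to 0.1189 for Rdh10 in the pSHF. The 4 Crabp2 calls kept their sign without any 1 library, with ranges of −0.8963 to −0.2708 in the BrM cells, −1.099 to −0.3948 in the Pcdh10/Foxd1/Lum, −1.064 to −0.7173 in the Pcdh9/Galntl6/Lsamp and −0.9559 to −0.4769 in the Vtn/Sparcl1/Adamtsl1 cluster.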
